A study of Mus musculus with 8 samples.

Results

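The genes described here mark the conducting airways of the lung and the cell types of their lining: Sox2, Sox21, Scgb3a2, Cldn10, Foxj1, Ccno, Trp63, Krt5 and Krt15. They are 9 of the 55401 genes in a table of RNA sequencing counts from whole embryonic mouse lung at E13.5, picked by symbol as markers of conducting airway, secretory, multiciliated and basal cells. The first group was 4 libraries of lungs labelled Tbx4tetOcre;MyrfE6 mutant, called mutant below. The second was 4 libraries of lungs labelled cre control, called control. The labels do not spell out the MyrfE6 allele, name the transgenes that the cre control lungs carry, state any inducer, or give the litter, sex or number of embryos behind a library, so the p-values speak for the scatter among libraries, which may be partly technical. Tbx4 is known in the lung from the mesenchyme, while the 9 genes are known from the epithelium. Whole lung was sequenced, so fewer cells of a type and less RNA per cell cannot be told apart.

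As background, the lung epithelium is laid down as a branching tree in which the stalks make Sox2 and become conducting airway, while the growing tips make Sox9 and later give rise to alveoli. The stalk epithelium then yields secretory cells, multiciliated cells that move mucus, neuroendocrine cells and, mainly in the trachea, basal stem cells. In multiciliated cells the regulators Gmnc and Mcidas start a programme in which Ccno helps to amplify centrioles and Foxj1 switches on the genes of motile cilia.

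**Figure D1:**
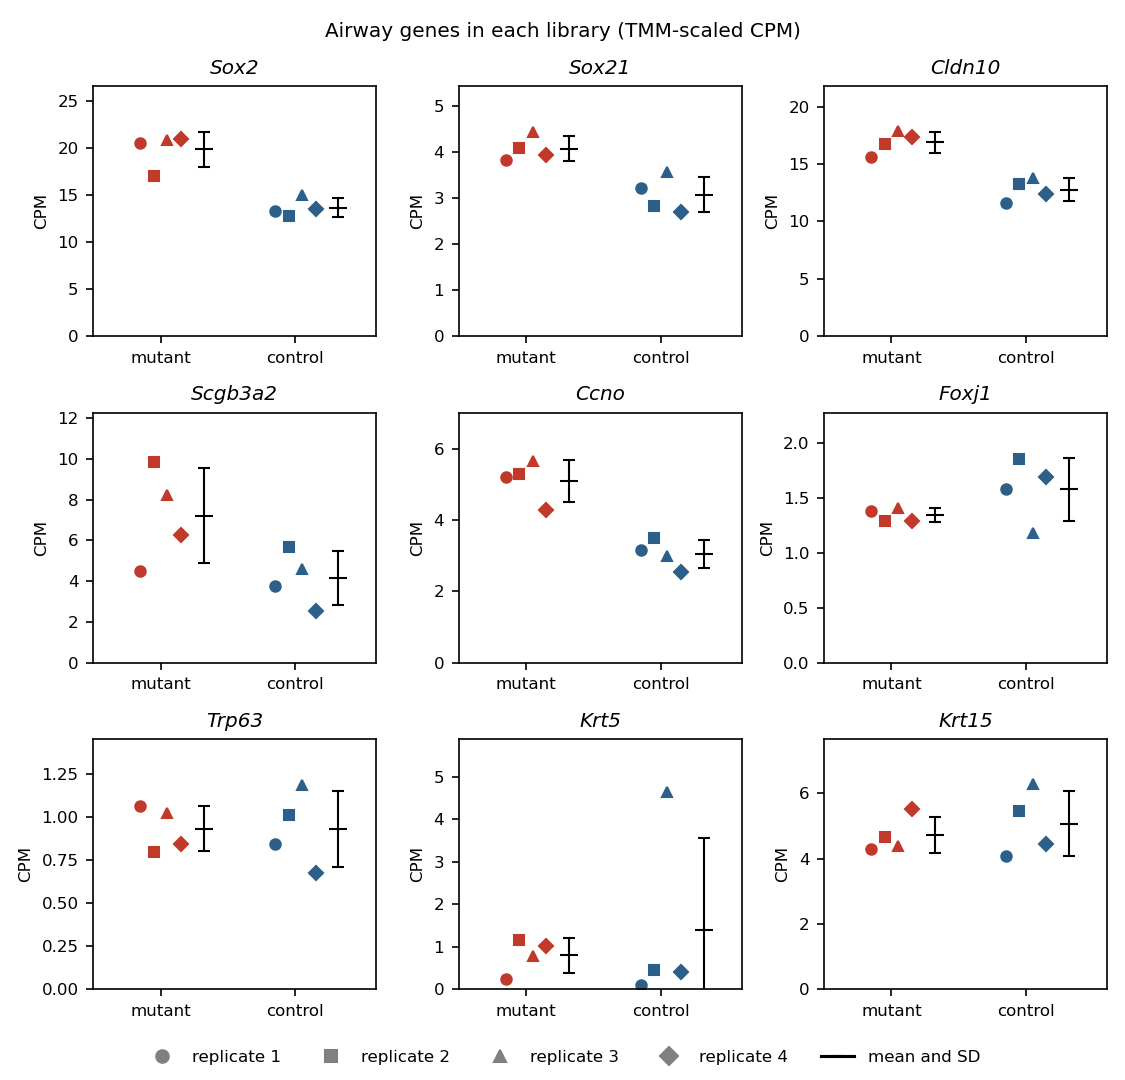
Level of each airway gene in each library, in CPM (each count scaled to its TMM-adjusted library total), with a linear axis from 0. Symbols are replicates, and the black bar beside each group is its mean and SD over 4 libraries (the bar for Krt5 in controls is cut at 0). All 4 mutant libraries lie above all 4 control libraries for Sox2, Sox21, Cldn10 and Ccno, and control replicate 3 stands apart for Krt5.

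The labels and libraries were checked first. Total counts lay between 17819285 and 48679134 in mutant libraries and between 17799899 and 19032389 in control libraries. Myrf, the targeted gene, measured 84.4 to 92.4 CPM in mutant and 106.9 to 120.5 CPM in control libraries, with no overlap. Epithelium was present: all 22 of 22 listed pan-epithelial genes, which include the lung factor Nkx2-1, were expressed above the low-count filter. Most of these genes do not set lung apart from other organs with epithelium. Transcripts of the X-inactivation gene Xist and of 4 Y-linked genes differed between libraries. Xist was near 0 in mutant replicates 1 and 2 (0.591 and 0.369 CPM), and Y-linked genes were at or near 0 in control replicates 2 and 3 (0 and 0.0565 CPM). The other 4 libraries held both kinds of transcript. With the Y-linked level as a covariate, Sox2, Cldn10 and Ccno kept their calls, at log2 fold changes of 0.58, 0.51 and 0.84 (adjusted p = 0.0183, 0.0158 and 0.0459, edgeR quasi-likelihood test).

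A pair of libraries stood apart in airway transcripts. Scgb1a1, the secretoglobin of mature club cells, had 277 counts in mutant replicate 1 and 0 counts in each of the other 7 libraries. This gene is known from airways of later stages than that sampled here, and the source of its counts was not tested. The genes that most set mutant replicate 1 apart also included the muscle genes Mb, Pln, Myl2 and Ckmt2, with 255, 111, 115 and 51 counts there and at most 18, 2, 8 and 0 counts in any other library. Cbr2 was among them as well, at 5.13 CPM there and at most 1.74 CPM elsewhere. The secretory cell genes Scgb3a1 and Bpifa1 had 10 and 9 counts there and at most 2 and 1 elsewhere. Scgb3a2, in contrast, was lower there than in the other mutant libraries. In control replicate 3 the genes with the largest ratio to the highest other library were Rpl29, a ribosomal protein gene, then Krt5 and Krt14, the paired keratins of basal cells. Without mutant replicate 1 the log2 fold changes of Sox2, Cldn10 and Ccno were 0.51, 0.44 and 0.75 (adjusted p = 0.00761, 0.0125 and 0.0192, edgeR). Without control replicate 3 they were 0.58, 0.44 and 0.74 (adjusted p = 0.00507, 0.022 and 0.0378, edgeR).

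Of the 9 genes, all of which passed the low-count filter, 3 rose in the mutant lung, none fell and 6 did not pass (edgeR, adjusted p below 0.05 over 15788 genes). Sox2, Cldn10 and Ccno were the 3 that rose. Over all genes tested, 1.49% were called in either direction and 0.564% were called higher. The groups did not overlap for 4 of the 9, all higher in mutant libraries, against 3.31% of all tested genes in that direction and 7.37% in either. The median log2 fold change was 0.40 over the 9 genes and 6.5e-05 over all genes tested. The 9 genes were named with results of these data known, so these counts are a description. Counts ranged from 12 to 832 per gene and library, except for Krt5, with 2 to 82.

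Per base of exon, Sox2 had the highest mean level of the 9 genes in both groups. In CPM per kb of exon, Sox2 averaged 9.64 ± 0.903 in mutant and 6.64 ± 0.468 in control libraries (SD, n = 4 each). Scgb3a2 averaged 8.20 ± 2.66 in mutant and 4.70 ± 1.51 in control libraries, and Cldn10 averaged 6.52 ± 0.366 and 4.93 ± 0.379. The spread of Scgb3a2 overlapped those of Cldn10 and Sox2 in both groups, so its place in the order was not resolved. Below them came Krt15 (2.67 ± 0.314 in mutant and 2.87 ± 0.564 in control libraries), Ccno (1.999 ± 0.23 and 1.19 ± 0.156) and Sox21 (1.07 ± 0.0704 and 0.81 ± 0.103). Foxj1, Krt5 and Trp63 were the lowest, at means of 0.513, 0.364 and 0.111 CPM per kb in mutant and 0.603, 0.635 and 0.111 CPM per kb in control libraries, and the spreads of Foxj1 and Krt5 overlapped.

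Of the 9 genes, 5 had a promoter window in the RefSeq table for GRCm38.p6, running from 250 bases before to 50 bases after an annotated start site. The windows of the 3 genes that rose are shown, and Cldn10 has 2 annotated starts. Each is given 5′ to 3′ on the strand of the gene, with matches to the SOX core letters CTTTGT or CATTGT, on either strand, in capitals.
Sox2, chr3:34649745-34650044, plus strand: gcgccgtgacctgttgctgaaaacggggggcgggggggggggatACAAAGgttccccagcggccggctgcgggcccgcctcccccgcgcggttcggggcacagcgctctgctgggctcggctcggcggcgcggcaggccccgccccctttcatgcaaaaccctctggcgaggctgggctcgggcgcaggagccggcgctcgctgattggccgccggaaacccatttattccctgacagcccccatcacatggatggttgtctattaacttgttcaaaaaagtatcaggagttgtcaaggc
Cldn10, first start, chr14:118787621-118787920, plus strand: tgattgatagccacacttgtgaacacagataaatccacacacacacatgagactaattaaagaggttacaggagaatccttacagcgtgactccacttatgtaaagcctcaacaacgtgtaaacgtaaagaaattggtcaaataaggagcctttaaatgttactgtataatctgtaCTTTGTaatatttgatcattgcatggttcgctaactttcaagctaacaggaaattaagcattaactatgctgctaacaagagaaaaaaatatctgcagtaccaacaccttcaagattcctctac
Cldn10, second start, chr14:118854700-118854999, plus strand: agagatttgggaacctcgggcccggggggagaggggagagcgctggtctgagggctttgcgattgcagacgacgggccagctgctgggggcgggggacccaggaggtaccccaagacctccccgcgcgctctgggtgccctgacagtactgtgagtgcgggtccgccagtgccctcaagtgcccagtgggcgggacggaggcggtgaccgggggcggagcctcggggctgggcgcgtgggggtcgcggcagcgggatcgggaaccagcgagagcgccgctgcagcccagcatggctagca
Ccno, chr13:112987552-112987851, plus strand: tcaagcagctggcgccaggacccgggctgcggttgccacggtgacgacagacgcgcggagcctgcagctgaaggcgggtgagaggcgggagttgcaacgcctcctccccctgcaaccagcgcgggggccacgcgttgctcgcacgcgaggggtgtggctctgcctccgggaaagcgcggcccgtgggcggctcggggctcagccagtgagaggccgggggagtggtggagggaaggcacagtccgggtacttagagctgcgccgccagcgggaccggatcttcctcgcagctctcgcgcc
The windows of Sox2 and of the first start of Cldn10 each held 1 match, 206 and 74 bases before the start. The window of the second start of Cldn10 and that of Ccno held 0. Of all 32851 windows in the table, 28.6% held at least 1 such match, so a match is a common feature. The windows of Sox2, Ccno and the second start of Cldn10 were rich in G and C (66.3%, 72.0% and 72.0%), against 36.0% for the first start of Cldn10 and a median of 52.7% over all windows. The start that RefSeq gives for Sox2 lies 410 bases before the first exon base counted in the deposited table.

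Sox2 encodes the transcription factor that defines the conducting airway domain. It had 20.5, 17.0, 20.8 and 20.9 CPM in mutant replicates 1 to 4, against 13.3, 12.8, 15.02 and 13.53 CPM in control replicates 1 to 4. Every mutant library was higher than every control, and mutant replicate 2, the deepest library, was the lowest of its group. The means were 19.8 ± 1.86 CPM in mutant and 13.7 ± 0.963 CPM in control libraries (SD, n = 4 each), a rise of 1.44-fold with a 95% interval of 1.29 to 1.61. The log2 fold change was 0.53 (SE 0.0823, adjusted p = 0.00282, edgeR quasi-likelihood test). It was called under all 15 alternatives, with log2 fold changes of 0.50 to 0.61. Sox2 (ENSMUSG00000074637.7) occupies bases 34650405 to 34652461 of chromosome 3, plus strand, in GRCm38, and its exon shares no base with an exon of another gene in the table.

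Sox21, a related factor of the SOXB2 group that is expressed with Sox2 in the stalk epithelium, had 3.82, 4.08, 4.44 and 3.94 CPM in mutant replicates 1 to 4, against 3.22, 2.82, 3.56 and 2.71 CPM in control replicates 1 to 4. The groups did not overlap, yet the gene did not pass over all genes tested. Its log2 fold change was 0.40 (SE 0.135, adjusted p = 0.158, edgeR), and it was called under 0 of 15 alternatives, with adjusted p of 0.114 to 0.316 and an unadjusted p of 0.00803 in the reported fit. Sox21 (ENSMUSG00000061517.8) occupies bases 118233232 to 118237030 of chromosome 14, minus strand. An opposite-strand gene, Gm4675, overlaps 713 of its exon bases, and the counting used strand.

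None of the other SOX genes tested rose in the reported fit. Of 14 other listed SOX genes 10 were tested, and 2 fell, Sox4 and Sox11, which are broadly expressed in embryonic progenitors. Sox4 averaged 221 ± 14.6 CPM in mutant and 252 ± 9.45 CPM in control libraries (log2 fold change -0.19, SE 0.0441, adjusted p = 0.0389, edgeR). Sox11 averaged 129 ± 6.96 CPM in mutant and 147 ± 8.94 CPM in control libraries (log2 fold change -0.20, SE 0.0466, adjusted p = 0.041, edgeR). Both calls were lost in 9 of 15 alternatives each. The median of the 10 was -0.11 on the log2 scale, with 3 above 0. Sox18, an endothelial factor, averaged 40.6 ± 3.67 CPM in mutant and 34.6 ± 4.91 CPM in control libraries (adjusted p = 0.296, edgeR) and was called higher in 2 alternatives, without the low-count filter and without control replicate 4. Sox9, the factor of the distal tips, averaged 50.1 ± 5.05 CPM in mutant and 55.5 ± 3.93 CPM in control libraries and missed the threshold (log2 fold change -0.15, with SE 0.071 and adjusted p = 0.378 in edgeR).

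Cldn10 encodes a claudin, a tight junction protein that marks airway secretory cells. It had 15.7, 16.7, 17.9 and 17.3 CPM in mutant replicates 1 to 4, against 11.6, 13.3, 13.8 and 12.4 CPM in control replicates 1 to 4. All mutant libraries lay above all controls. The means were 16.9 ± 0.948 CPM in mutant and 12.8 ± 0.983 CPM in control libraries, a rise of 1.32-fold with a 95% interval of 1.19 to 1.47. The log2 fold change was 0.40 (SE 0.077, adjusted p = 0.0139, edgeR), and the call was lost in 1 of 15 alternatives, without control replicate 1 (adjusted p = 0.0519). Cldn10 (ENSMUSG00000022132.15) occupies bases 118787908 to 118875489 of chromosome 14, plus strand. Its second start lies 67042 bases into the gene, and the counts do not separate transcripts of the 2 starts.

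Cldn10 and Sox21 are neighbours on chromosome 14, with 550877 bases between them. Abcc4, a transporter gene, was the 1 tested gene between them, and it averaged 5.57 CPM in mutant and 5.72 CPM in control libraries (log2 fold change -0.03, SE 0.106, adjusted p = 0.929, edgeR). Among 18 other listed claudin and tight junction genes, 16 were tested and 0 were called in edgeR, DESeq2 or limma-voom, with 6, 4 and 6 at an unadjusted p below 0.05. The median log2 fold change of the 16 was 0.13. Tjp1, a junction scaffold and the most highly expressed of them, averaged 146 ± 7.64 CPM in mutant and 149 ± 6.36 CPM in control libraries.

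Scgb3a2 encodes a secretoglobin that is among the earliest secretory cell transcripts of the fetal airway. It had 4.50, 9.86, 8.25 and 6.25 CPM in mutant replicates 1 to 4, against 3.75, 5.69, 4.57 and 2.54 CPM in control replicates 1 to 4. The groups overlapped, since mutant replicate 1 lay below control replicates 2 and 3. The gene varied more within groups than Sox2 or Cldn10, with coefficients of variation of 32.4% in mutant and 32.2% in control libraries. Its log2 fold change was 0.83 (SE 0.316), which did not pass (adjusted p = 0.307, edgeR), and the 95% interval of the fold change ran from 1.15 to 2.72. With 1 library left out, the log2 fold change of Scgb3a2 ran from 0.61 without mutant replicate 2 to 1.02 without control replicate 2 (adjusted p = 0.516 and 0.268), and it passed in none of these 8 fits.

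Other secretory genes were mostly low at this stage. Of 20 further listed secretory and goblet cell genes 9 were tested, 1 rose, 8 did not pass, and the median log2 fold change was 0.10. Summed over the list, levels were 178.4 to 190.8 CPM in mutant and 147.8 to 167.8 CPM in control libraries, without overlap. Without Aldh1a1, the gene that rose, the summed levels of the groups overlapped. The sum of mutant replicate 1 also held 10.9 CPM of Scgb1a1. Aldh1a1, a retinaldehyde dehydrogenase found in airway secretory cells and in other lung cells, had 23.6, 28.6, 27.1 and 24.3 CPM in mutant replicates 1 to 4, against 13.4, 17.0, 14.7 and 12.8 CPM in control replicates 1 to 4. Its log2 fold change was 0.84 (SE 0.0888, adjusted p = 6.18e-05, edgeR), called under all 15 alternatives. Hes1, a target of Notch, averaged 43.3 ± 3.95 CPM in mutant and 39.0 ± 3.38 CPM in control libraries and did not pass (adjusted p = 0.376). Creb3l1, a factor of secretory capacity that mesenchymal cells also make, averaged 81.0 ± 4.55 and 79.4 ± 4.6 CPM (adjusted p = 0.876).

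Cyp2f2, a club cell cytochrome, fell short of the low-count filter, and its values were set by few libraries. It had 82, 53, 14 and 8 counts in mutant replicates 1 to 4, against 2, 8, 5 and 2 counts in control replicates 1 to 4. DESeq2, which tested it, called it higher. Mutant replicate 1 was also the library with Scgb1a1 counts, and the levels of the other 3 mutant libraries were 1.09, 0.683 and 0.45 CPM, against 0.106 to 0.451 CPM in controls, with an overlap. Cyp2f2 was chosen for this description after its values were seen.

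**Figure D2:**
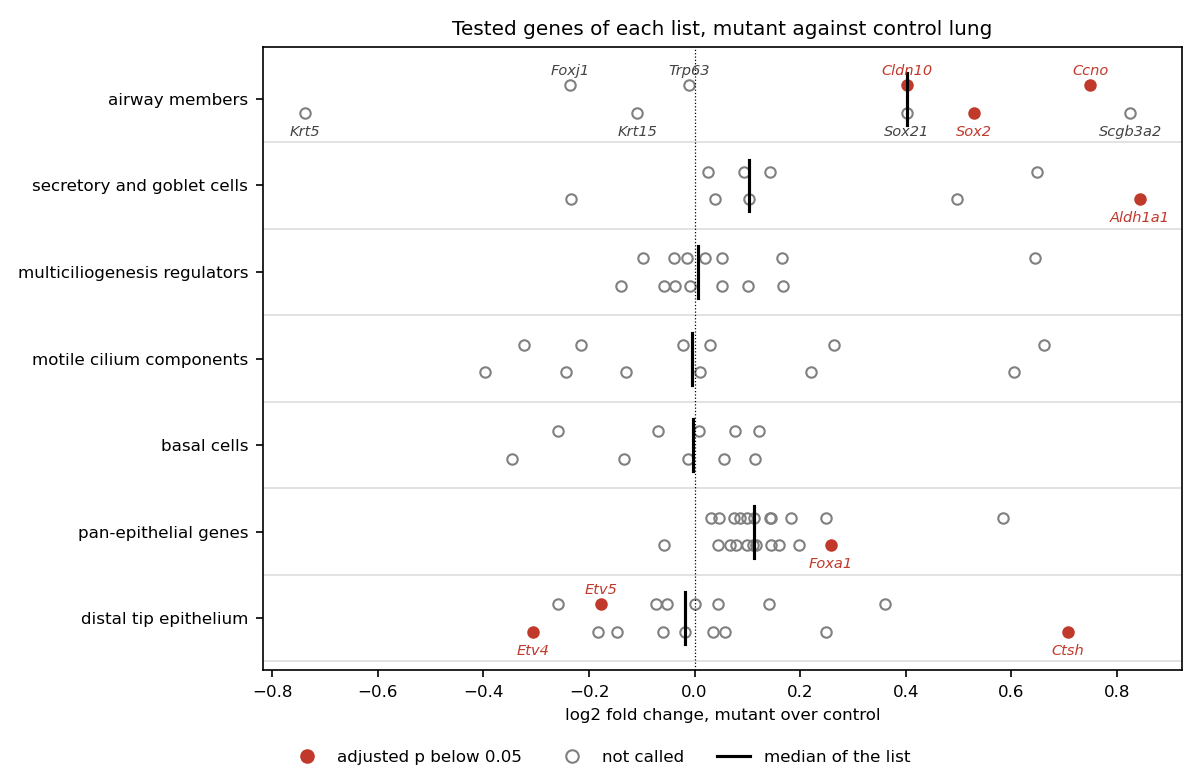
Log2 fold change, mutant over control, of every tested gene in the airway set and in 6 further lists of epithelial genes. Each circle is a gene, filled red circles passed at an adjusted p below 0.05 (edgeR), and black ticks are list medians. Sox2, Cldn10 and Ccno lie to the right with Aldh1a1, Foxa1 and Ctsh, while Etv4 and Etv5 of the distal tips lie to the left.

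Ccno encodes cyclin O, which multiciliated cell precursors need to make centrioles in number. It had 5.205, 5.29, 5.66 and 4.28 CPM in mutant replicates 1 to 4, against 3.17, 3.50, 2.99 and 2.54 CPM in control replicates 1 to 4. Every mutant library was above every control. The means were 5.11 ± 0.588 CPM in mutant and 3.05 ± 0.399 CPM in control libraries, a rise of 1.68-fold with a 95% interval of 1.40 to 2.02. The log2 fold change was 0.75 (SE 0.136, adjusted p = 0.00906, edgeR), the largest among the 3 members that rose, and it was called under all 15 alternatives. The values rest on 76 to 258 counts in mutant and 45 to 62 counts in control libraries. Ccno (ENSMUSG00000042417.5) occupies bases 112987802 to 112990777 of chromosome 13, plus strand.

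Foxj1, the regulator of motile cilium genes, did not pass. It had 1.38, 1.29, 1.42 and 1.29 CPM in mutant replicates 1 to 4, against 1.58, 1.86, 1.19 and 1.69 CPM in control replicates 1 to 4. All mutant libraries lay inside the control range. The log2 fold change was -0.24 (SE 0.203, adjusted p = 0.676, edgeR), and the 95% interval of the fold change, from 0.644 to 1.119, includes both lower and higher levels. At 21 to 63 counts per library a change within that interval was not detectable.

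The genes around Ccno and the rest of the multiciliated programme were low or did not pass. Mcidas, the regulator that starts 3068 bases after Ccno on the same strand, had 0.907, 1.05, 1.02 and 1.13 CPM in mutant replicates 1 to 4, against 0.528, 0.846, 0.565 and 0.677 CPM in control replicates 1 to 4. Its groups did not overlap but it missed the threshold (log2 fold change 0.64, with SE 0.257 and adjusted p = 0.254 in edgeR). Cdc20b, the next gene of that locus, had 0 or 1 count in each library. Within 100 kb on either side of Ccno, 4 other genes were tested: Mcidas, and Mtrex, Dhx29 and Gpx8, whose log2 fold changes were 0.07, 0.04 and -0.02.

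Of 20 further regulators of multiciliated cell formation 14 were tested and 0 were called in edgeR, DESeq2 or limma-voom, with 2, 0 and 2 at an unadjusted p below 0.05. Their median log2 fold change was 0.01. The most highly expressed were the cell cycle genes Tfdp1 (248 ± 8.14 CPM in mutant and 255 ± 8.25 CPM in control libraries) and Cdk2 (158 ± 2.35 and 153 ± 2.09 CPM), which all dividing cells use. Gmnc, the first regulator of the programme, was below the low-count filter. It had 14, 11, 14 and 10 counts in mutant replicates 1 to 4, against 4, 8, 4 and 5 counts in control replicates 1 to 4. Scaled to library totals, these were 0.552, 0.225, 0.683 and 0.563 CPM against 0.211, 0.451, 0.226 and 0.282 CPM. On that scale the groups overlapped, with mutant replicate 2, the deepest library, lowest of its group.

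Components of the motile cilium were mostly near the limit of detection. Of 30 listed 12 were tested and 0 were called in edgeR or limma-voom, with 4 in each at an unadjusted p below 0.05. DESeq2 called 1, Mns1, with 2 at an unadjusted p below 0.05. Mns1, an axoneme protein gene, averaged 33.8 ± 2.64 CPM in mutant and 28.2 ± 2.46 CPM in control libraries (log2 fold change 0.26, SE 0.0692, adjusted p = 0.0591, edgeR). Tppp3, a tubulin-binding protein gene, averaged 22.8 ± 0.86 CPM in mutant and 19.5 ± 0.93 CPM in control libraries (adjusted p = 0.0916). The median log2 fold change of the 12 was -0.01, with 6 above 0 and 6 below. Summed over the list, levels were 79.0 to 82.9 CPM in mutant and 68.8 to 75.8 CPM in control libraries, without overlap. Mns1 and Tppp3 supplied most of that sum and nearly all of its difference between groups. Without them the summed levels overlapped. For 3 of the 12 genes the groups did not overlap, all higher, against 3.31% of all tested genes in that direction. Sntn, a gene of mature cilia, had 0 counts in all 8 libraries. A count of 3 at the smallest total corresponds to 0.169 CPM, the limit that a count of 0 allows (counting error only).

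The 3 basal cell genes among the 9 did not pass. Trp63, the basal cell transcription factor, had 1.06, 0.799, 1.02 and 0.844 CPM in mutant replicates 1 to 4, against 0.845, 1.01, 1.19 and 0.677 CPM in control replicates 1 to 4. All mutant libraries lay within the control range (log2 fold change -0.01, SE 0.254, adjusted p = 0.991, edgeR), and the 95% interval of the fold change was 0.703 to 1.40.

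Krt15, a keratin of basal and other epithelial cells, had 4.30, 4.65, 4.39 and 5.52 CPM in mutant replicates 1 to 4, against 4.07, 5.47, 6.27 and 4.45 CPM in control replicates 1 to 4. The groups overlapped, and control replicate 3 was the highest library. The log2 fold change was -0.11 (SE 0.141, adjusted p = 0.797, edgeR), and its sign turned without control replicate 3 (0.01).

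Krt5, the keratin that defines mature basal cells, had 0.237, 1.17, 0.781 and 1.01 CPM in mutant replicates 1 to 4, against 0.106, 0.451, 4.63 and 0.395 CPM in control replicates 1 to 4. One library, control replicate 3, held 82 counts, against 2, 8 and 7 in the other controls. With it the log2 fold change was -0.74 (SE 1.1, adjusted p = 0.837, edgeR), and without it 1.38 (SE 0.553, adjusted p = 0.323), so its direction was set by a single library and neither value passed. Krt14, its partner keratin, showed the same library apart, with 0.631 to 0.788 CPM in mutant libraries, against 2.65 CPM in control replicate 3 and 0.211 to 0.282 CPM in the other controls.

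**Figure D3:**
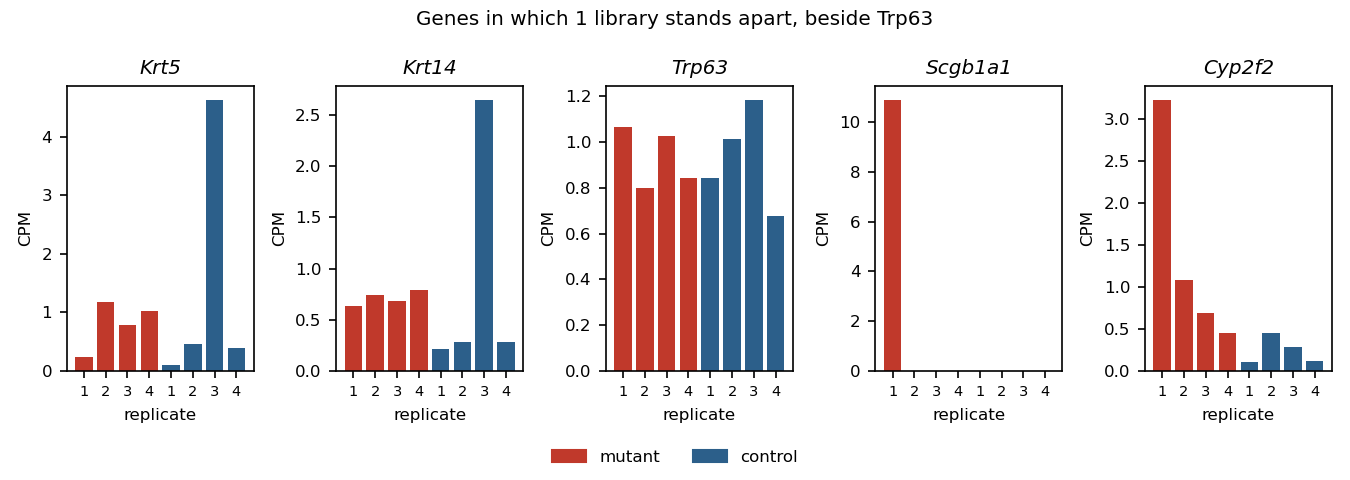
Level in CPM of 5 airway genes in each library, on linear axes from 0, with mutant replicates 1 to 4 in red left of control replicates 1 to 4 in blue. Krt5 and Krt14 are high in control replicate 3. Trp63 lies between 0.677 and 1.19 CPM and is also highest in control replicate 3, and Scgb1a1 and Cyp2f2 are highest in mutant replicate 1.

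Stratified epithelium of skin and oesophagus also makes Krt5 and Krt14. Of 23 listed genes of that tissue 8 were tested and 0 were called in edgeR, DESeq2 or limma-voom, with 1, 0 and 0 at an unadjusted p below 0.05. The summed level of the list was 94.9 to 109.9 CPM in mutant and 101.5 to 120.7 CPM in control libraries. Fabp5, a fatty acid carrier that many cells make, supplied most of it (82.6 ± 6.98 CPM in mutant and 86.6 ± 10 CPM in control libraries). Sbsn averaged 4.89 ± 0.186 and 5.28 ± 0.372 CPM. Of the 23 listed genes 2, Krt16 and Dsg1a, had 0 counts in all 8 libraries, while each of the others had counts in at least 1. The part of such tissue in the Krt5 counts was not tested. Of 14 further genes listed for basal cells 10 were tested and 0 were called in edgeR or limma-voom, with 1 in each at an unadjusted p below 0.05. DESeq2 called 2, Ngfr lower and Cyp2f2 higher. Cyp2f2 is the club cell cytochrome that the secretory list also holds, so its call is not particular to basal cells. Ngfr was also called lower in edgeR without the low-count filter and without mutant replicate 4. Cav1 and Itga6, the most highly expressed and also made outside basal cells, averaged 185 ± 15.4 and 87.3 ± 7.57 CPM in mutant and 176 ± 15 and 80.7 ± 4.23 CPM in control libraries.

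Neuroendocrine cells are another lineage of the early conducting airway. Cplx2, a gene of vesicle release, averaged 107 ± 4.78 CPM in mutant and 109.7 ± 5.17 CPM in control libraries. Uchl1, a ubiquitin hydrolase gene that neurons also express, averaged 41.8 ± 0.964 CPM in mutant and 37.0 ± 1.1 CPM in control libraries. Neither passed (adjusted p = 0.781 and 0.0597, edgeR), although the groups did not overlap for Uchl1. Neurod1, a factor of neuroendocrine cells, was at 0 in all libraries.

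Sox2 and Sox21 are also made by neural cells. Of 20 listed genes of neural crest, glia and neurons 18 were tested, 16 lay above 0 on the log2 fold change scale (median 0.40), and 1 was called in edgeR, Ret (log2 fold change 0.37, SE 0.0895, adjusted p = 0.0453). That call was lost in 8 of 15 alternatives. The summed level of the list was 138.6 to 147.9 CPM in mutant and 113.5 to 126.6 CPM in control libraries, so the groups did not overlap. The glial factor Sox10 averaged 3.90 ± 0.62 CPM in mutant and 3.34 ± 0.17 CPM in control libraries. Sox1, a neural gene of the group of Sox2, was at 0 in all libraries, and Sox3 had at most 2 counts. The part of neural cells in the rise of Sox2 was not tested.

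Genes shared by all lung epithelium were slightly higher as well. Their summed level was 1658, 1716, 1709 and 1710.0 CPM in mutant replicates 1 to 4, against 1523, 1603, 1598 and 1600.0 CPM in control replicates 1 to 4, a ratio of means of 1.07. Of the 22 genes 21 lay above 0 on the log2 fold change scale (median 0.11), and 1 rose, Foxa1, a pioneer factor of endoderm (81.0 ± 3.49 CPM in mutant and 67.8 ± 2.09 CPM in control libraries, log2 fold change 0.26, SE 0.0423, adjusted p = 0.00417, edgeR). The Foxa1 call was lost with the Y-linked covariate (adjusted p = 0.073, edgeR). In the reported fit 11 of the 22 had an unadjusted p below 0.05. The groups did not overlap for 5 genes, all higher in mutant libraries, against 3.31% of all tested genes in that direction. Cldn3, Esrp1, Foxa2 and Krt8 were also called higher without the low-count filter. Foxa2 was so called with the replicate block, and Cldn3 and Foxa2 without control replicate 4. Cldn6 and Epcam, the most highly expressed, averaged 203 ± 5.11 and 189.5 ± 2.37 CPM in mutant and 193 ± 1.54 and 185 ± 3.71 CPM in control libraries and did not pass.

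The 9 genes were also set relative to that sum. It includes Krt19, which is listed for mesothelium too, and the part of mesothelium in the sum was not tested. Sox2 measured 12.4, 9.93, 12.2 and 12.2 CPM per 1000 CPM of the pan-epithelial sum in mutant replicates 1 to 4, against 8.70, 7.98, 9.40 and 8.46 in control replicates 1 to 4. The ratio of means was 1.35 for Sox2, 1.23 for Cldn10, 1.56 for Ccno and 1.23 for Sox21. On this scale too, all mutant libraries lay above all controls for these 4 genes. For the other 5 genes the groups overlapped, with ratios of 1.62 for Scgb3a2, 0.935 for Trp63, 0.868 for Krt15, 0.792 for Foxj1 and 0.536 for Krt5.

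**Figure D4:**
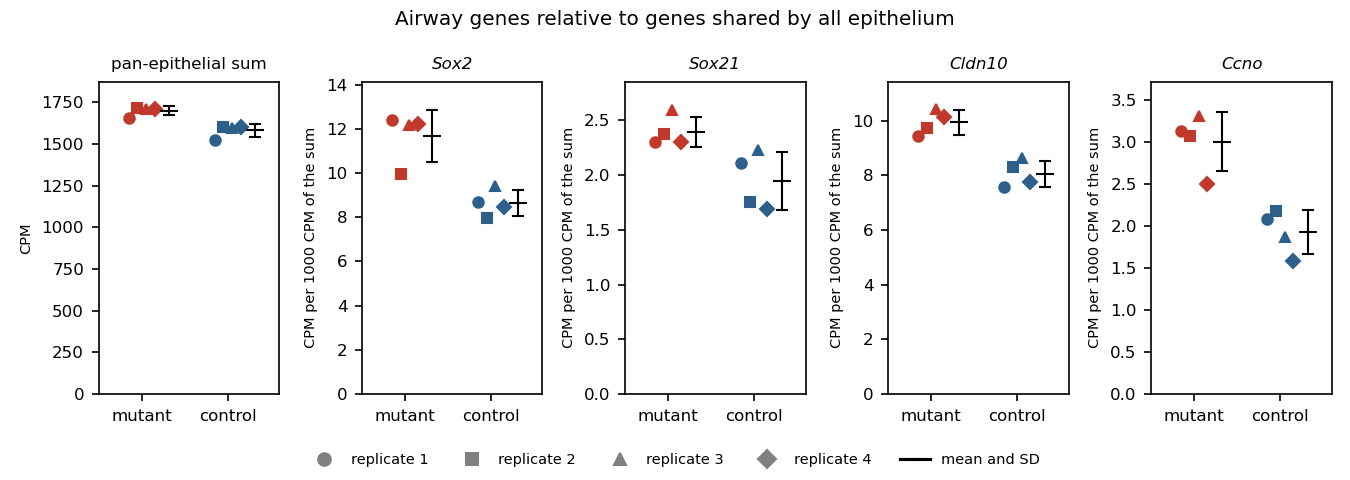
Summed level of 22 pan-epithelial genes in CPM (left) and level of Sox2, Sox21, Cldn10 and Ccno per 1000 CPM of that sum, by library, on linear axes from 0, with mean and SD over 4 libraries. The pan-epithelial sum has a ratio of means of 1.07, and all 4 genes stay higher in every mutant library than in any control library.

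Genes of the distal tips were compared because they mark the opposite end of the epithelium. Of 18 listed 17 were tested, 2 fell and 1 rose, with a median log2 fold change of -0.02. Etv4 and Etv5, factors that fibroblast growth factor signalling induces, averaged 24.5 ± 1.7 and 339 ± 16.6 CPM in mutant and 30.3 ± 1.83 and 383 ± 7.67 CPM in control libraries (adjusted p = 0.0252 and 0.021, edgeR). Their calls were lost in 3 and 6 of 15 alternatives. Ctsh, a protease of surfactant protein processing, averaged 11.5 ± 0.776 CPM in mutant and 7.04 ± 0.973 CPM in control libraries (log2 fold change 0.71, SE 0.1, adjusted p = 0.00106, edgeR), and its call held under all 15 alternatives.

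Muscle, cartilage and mesothelium were the other tissues compared. Of 14 heart and skeletal muscle genes 10 were tested and 0 were called in edgeR or limma-voom, with 1 and 3 at an unadjusted p below 0.05, and 1 was called by DESeq2, Tnnt2. The median log2 fold change of the 10 was 0.55, with 9 above 0. The summed level of the list was 110.3 to 157.2 CPM in mutant and 73.9 to 113.9 CPM in control libraries. Myh6, an atrial myosin, had 33.8 CPM in mutant replicate 1 against at most 12.01 CPM in any other library. Actc1, cardiac actin, averaged 70.1 ± 10.2 and 61.0 ± 14.4 CPM. Of 12 tracheal cartilage genes 9 were tested and 0 were called in edgeR, DESeq2 or limma-voom, with 3, 2 and 2 at an unadjusted p below 0.05. Col2a1 and Col9a2, cartilage collagens, averaged 132 ± 6.64 and 71.5 ± 4.06 CPM in mutant and 139 ± 4.35 and 65.4 ± 3.05 CPM in control libraries. Of 12 mesothelium genes 4 fell (Wt1, Upk3b, Lrrn4 and Gpm6a, of which Lrrn4 lost its call in 5 of 15 alternatives), with a summed level of 266.4 to 308.6 CPM in mutant and 341.3 to 366 CPM in control libraries. The median log2 fold change of the 12 was -0.40, with 10 below 0.

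The 5 genes whose pattern over the 8 libraries was nearest to that of Sox2 were Ppp2r2b, Erc2, Vill, Wscd2 and Nacad. Each was centred on its own mean, and nearness was the mean absolute difference in log2 CPM, over genes with a mean of at least 1 CPM. Ppp2r2b, a phosphatase regulatory subunit gene, differed from Sox2 by 0.0573 and averaged 16.3 CPM in mutant and 10.9 CPM in control libraries. Vill, a gene of the villin family, differed by 0.0719 and averaged 50.7 CPM in mutant and 31.5 CPM in control libraries. Among 14339 genes ranked, Cldn10 was the 14th nearest to Sox2 (0.107) and Sox21 the 36th (0.127), while Ccno ranked 851 and Scgb3a2 ranked 13526. The libraries that set these distances are the same 8 that gave the difference in Sox2, so they add no separate evidence.

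**Figure D5:**
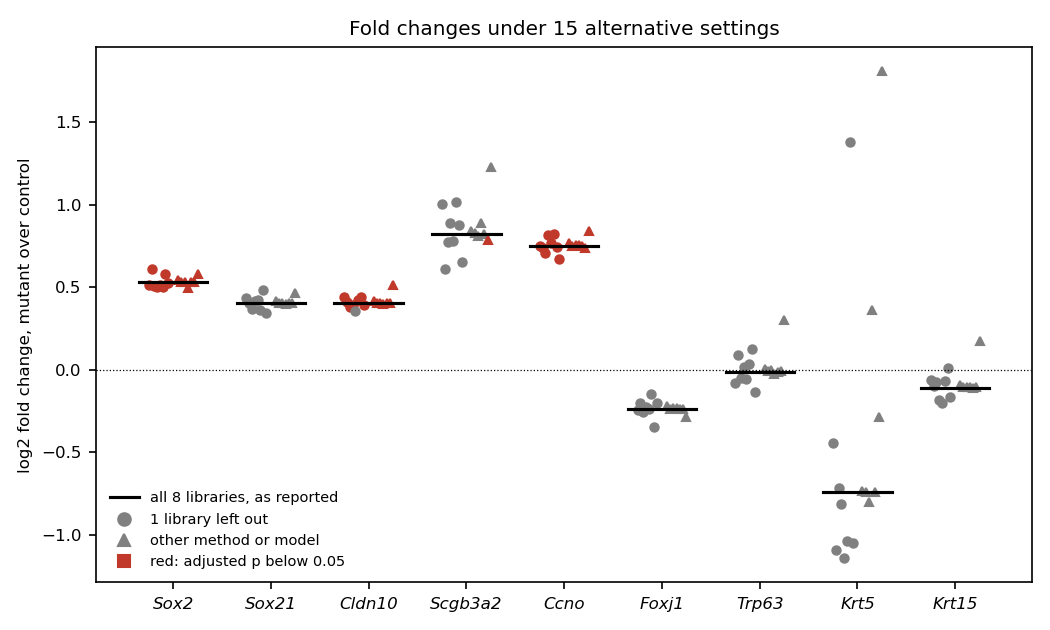
Log2 fold change of the 9 genes with all 8 libraries (black line), with 1 library left out (circles) and under other methods or models (triangles), red where the adjusted p was below 0.05. Sox2 and Ccno are red in all 15 alternatives Cldn10 in 14 and Scgb3a2 in 1, while the values of Krt5 fall on both sides of 0.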

How the data were processed

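RNA was sequenced from E13.5 mouse lung, 4 mutant and 4 control libraries, with a stranded kit, per the labels' protocols. The authors deposited raw counts, 1 whole number of read pairs per gene and library, made with featureCounts 1.6.4 in paired mode with strand option 2 on GENCODE vM25 exons, per the file headers. STAR, DESeq2 and GRCm38 (mm10) are named in the submitters' processing notes, which state no version of STAR. The deposited exon length served for levels per kb. Symbols were matched for 55141 of 55401 genes, and listed Dnai1 and Dnai2 were read as Dnaic1 and Dnaic2.

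All 8 libraries entered 1 fit in edgeR 4.0.16 under R 4.3.3: expression filter (15788 genes left, 99.9% of counts), TMM scaling, robust quasi-likelihood F test, two-sided, no covariate, Benjamini-Hochberg adjustment over all genes tested, threshold 0.05. CPM values are TMM-scaled, with means ± SD over 4 libraries. Intervals are 1.96 SE. Alternatives were DESeq2 1.42.0, limma-voom (limma 3.58.1), other scaling, no filter, no robust estimation, a replicate block, a covariate of Y-linked level and each library left out. The fit was also run on simulated counts, with the outcome not reported here. Pairs of libraries within a group differed by 2.92 to 8.91 times the sampling variance, so none was a duplicate.

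The 9 genes and the 14 further lists were chosen with earlier results of these data known. Named list genes were all called ones and, where 0 or 1 was called, the 2 highest expressed. The same rule took the 5 genes nearest to Sox2 and the 10 genes most raised in the Krt5-high library; the similar list for mutant replicate 1 and single low genes were chosen after values were seen. Some genes that this rule names are not reported here.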

Additional observations from a re-analysis of the deposited data

Results flagged for a closer look

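A library was marked where its gap to the nearest library of its group was above Dixon's 95% critical share of the group's range for 4 samples. Of 46 groups examined, 6 held such a library, and chance marks about 1 in 20 groups. Krt5 in control replicate 3 was the highest of the controls at 4.63 CPM. Sox2 in mutant replicate 2, the deepest library, was the lowest of the mutants at 17.05 CPM and still above all controls. The summed level of the secretory and goblet list was lowest in control replicate 1 among the controls, at 147.8 CPM. The pan-epithelial sum was lowest in mutant replicate 1 at 1658 CPM and in control replicate 1 at 1523 CPM. The mesothelium sum was highest in mutant replicate 1 at 308.6 CPM.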

How the results depend on the processing

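The count of changed genes over the table, 236, was 366 with DESeq2, 142 without robust estimation, 791 without the low-count filter, 541 with the replicate block, 95 with the Y-linked covariate (52 higher and 43 lower), and 96 to 479 with 1 library left out. It was 96, 100, 121 and 118 without control replicates 3, 1 and 2 and mutant replicate 2, and 479 without mutant replicate 4. Without control replicate 3 the split was 49 higher and 47 lower, against 89 and 147 with all libraries. Of the 9 airway genes 2 to 3 were called with 1 library left out. Sox2 and Ccno were called in all 15 alternatives, and Cldn10 in 14. Scgb3a2 was called in 1, the replicate block (log2 fold change 0.79, adjusted p = 0.00482). Same-numbered libraries deviated together only weakly (correlations of 0.0125 to 0.181), and libraries of 2 of the 4 numbers matched their own number best, so the numbers were not taken as pairs. Trp63, reported at -0.01, was 0.0070 without the filter, 0.30 with the Y-linked covariate, and 0.09, 0.02, 0.03 and 0.13 without mutant replicates 2 and 4 and control replicates 2 and 3 (-0.13 to 0.13 with 1 library left out). Krt5, reported at -0.74, was 0.36 with limma-voom, 1.81 with the covariate and 1.38 without control replicate 3 (-1.14 to 1.38 with 1 library left out). Krt15, reported at -0.11, was 0.18 with the covariate and 0.013 without control replicate 3 (-0.20 to 0.013 with 1 library left out). None of these values passed, and the cause was not tested. Of the lists with 0 calls in the reported fit, some held calls without the low-count filter (Cyp2f2, Mns1, Cldn18, Ocln, Ckm, Nppa and Tnnt2 higher, Ngfr and Col11a2 lower) and with the replicate block (Mns1, Cldn18 and Myl7 higher, Ngfr lower). Cldn18 was also called higher without mutant replicate 1 and Tnnt2 without mutant replicate 2. Counts of 2 to 82 per library for Trp63, Foxj1 and Krt5 limit what could be detected for them.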
